A study of Mus musculus with 24 samples.

Results

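The 50 genes described here encode subunits and factors of RNA polymerase I and proteins that process, modify and assemble ribosomal RNA in the nucleolus. They were chosen by name, with earlier results of these data known, and all 50 were found among the 24982 gene symbols counted in each library. The RNA came from eosinophils sorted from mouse bone marrow at maturation stages I, II, III and IV, stage I being the earliest. All mice were wild type, of the strain given as C57BL6 in the strain field and as CB57BL/6 in the protocol. Magnetic beads took out cells with CD45R, NK1.1, CD90.2 or Ly6G on their surface. The gates for the stages used CD55, CD29, CD200R3 and CD117 besides F4/80, Pir-A/B and Siglec-F. Cells came either from mice given 400 ng of recombinant IL-33, a cytokine that raises eosinophil output, by daily intraperitoneal injection for 7 days, or from mice in steady state. The labels used here give no ages, and each library pooled marrow from 3 mice. The 2 conditions and 4 stages gave 8 groups of 3 libraries, 24 libraries in all. By role, 7 of the genes belong to the RNA polymerase I machinery, 4 to box C/D and 4 to box H/ACA ribonucleoproteins, 6 are abundant nucleolar proteins with several tasks, 15 act on the small subunit and 14 on the large subunit.

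RNA polymerase I transcribes a single long precursor from the ribosomal DNA repeats, with UBF (Ubtf) on the repeats and TIF-IA (Rrn3) bringing the polymerase to the promoter. In the nucleolus, box C/D particles methylate ribose and box H/ACA particles convert uridine to pseudouridine in the precursor, while the small-subunit processome and the large-subunit assembly factors cut, fold and package it. Making ribosomes is among the costliest activities of a dividing cell, and granulocytes shrink their nucleoli and leave the cell cycle as they mature.

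Many genes of this pathway are known targets of the transcription factor Myc, which binds the E-box CACGTG. A RefSeq table of GRCm38.p6 promoters, from 250 bases before to 50 bases after each start, held 44 of the 50 genes. CACGTG, which reads the same on both strands, was found in 9 of these 44 (20.5%) and in 8.1% of the 27025 genes with a promoter of that length. CCGGAAGT, a motif of ETS family factors searched on both strands, was found in 11 of the 44 (25.0%) and in 4.3% of all genes, and GCGCATGC, a core of the NRF1 motif searched on both strands, in 2 (4.5%) and 3.0%. None of the 3 motifs contains another. Stretches of 80 bases upstream of the start are shown for the 3 genes with an upstream E-box, 5′ to 3′ on the plus strand with the E-box in capitals, because Myc itself is described beside these genes further on.
Rrn3, chr16:13780449-13780528, E-box at -215: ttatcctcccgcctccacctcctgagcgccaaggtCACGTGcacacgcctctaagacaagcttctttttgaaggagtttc
Rrn3, chr16:13780614-13780693, E-box at -48: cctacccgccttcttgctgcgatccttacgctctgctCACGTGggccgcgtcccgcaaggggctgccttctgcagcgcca
Nop2, chr6:125131786-125131865, E-box at -60: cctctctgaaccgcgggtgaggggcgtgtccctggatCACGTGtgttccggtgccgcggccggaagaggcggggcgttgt
Imp4, chr1:34439671-34439750, E-box at -121: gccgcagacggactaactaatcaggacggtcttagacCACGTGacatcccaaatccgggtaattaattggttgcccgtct
The remaining E-boxes lay just downstream of the start, at 2 in Pes1, 17 in Wdr43, 24 in Tsr1, 28 in Ltv1, 37 in Utp20 and 40 in Mybbp1a. These matches are descriptions of letters, not of bound sites.

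Gene counts ranged from 8335138 to 14909453 per library, and 11666 to 13576 genes had at least 1 read. Levels are TMM-scaled CPM, that is, reads of a gene relative to a library total adjusted by edgeR's trimmed means. They are shares of each library's messenger RNA and not amounts per cell. In sorted bulk samples fewer cells of a type and less RNA per cell cannot be told apart. A gene is said to rise or fall where edgeR's quasi-likelihood test, adjusted by Benjamini-Hochberg over the 12743 genes tested, gave p under 0.05. All 50 genes passed the filter on low counts. The design text calls the 3 libraries of a group biological replicates, and no label names a batch. Summed CPM of 9 eosinophil markers lay between 20764 and 39999 in 7 of the 8 groups, with 21190.3 to 27406 at IL-33 stage IV. The sum was 4571 to 8052 at steady-state stage IV, where 4 of the 9, Epx, Prg2, Prg3 and Alox15, were lower than at stage III. Prg2 alone went from 12195, 7415 and 12130 CPM at stage III to 492, 234 and 687 at stage IV. Ccr3, Siglecf, Il5ra, Gata1 and Cebpe did not pass the test at that step, with log2 fold changes of 1.59, -0.05, -0.44, -0.50 and -0.45. The steady-state libraries numbered 3 stood apart for some of the genes, but not in 1 direction. They were the highest of their group for 23, 12, 32 and 26 of the 50 genes at stages I, II, III and IV. They were the lowest for 16, 23, 6 and 14. Most plain was Ddx21, the helicase that links polymerase I transcription to processing. It had 8.86, 21.5 and 56.4 CPM at steady-state stage III and 29.1, 40.7 and 95.8 at stage IV. Other libraries leaned as far. Library 3 was the lowest for 35 genes at IL-33 stage II and for 33 at IL-33 stage III. Library 2 was the highest for 33 at IL-33 stage III and the lowest for 31 at steady-state stage III. Counts below are given without the 4 steady-state libraries numbered 3 where that moved them.

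Together the 50 genes lost most of their share of the messenger RNA as eosinophils matured, and most of the calls came 1 stage later under IL-33. Under IL-33 they took 0.704% ± 0.0415 of all gene counts at stage I, 0.561% ± 0.0548 at stage II, 0.359% ± 0.0320 at stage III and 0.120% ± 0.0114 at stage IV (SD, n = 3 libraries each). In steady state the shares were 0.647% ± 0.0268 at stage I, 0.383% ± 0.0514 at stage II, 0.126% ± 0.0271 at stage III and 0.182% ± 0.0194 at stage IV. The 2 conditions did not overlap at stages II, III and IV, with IL-33 higher at stages II and III and lower at stage IV. Under IL-33 the mean level was lowest at stage IV for 49 of the 50 genes, whereas in steady state it was lowest at stage III for 32, at stage IV for 17 and at stage II for 1. The stage of the lowest mean was not counted over all genes.

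**Figure D1:**
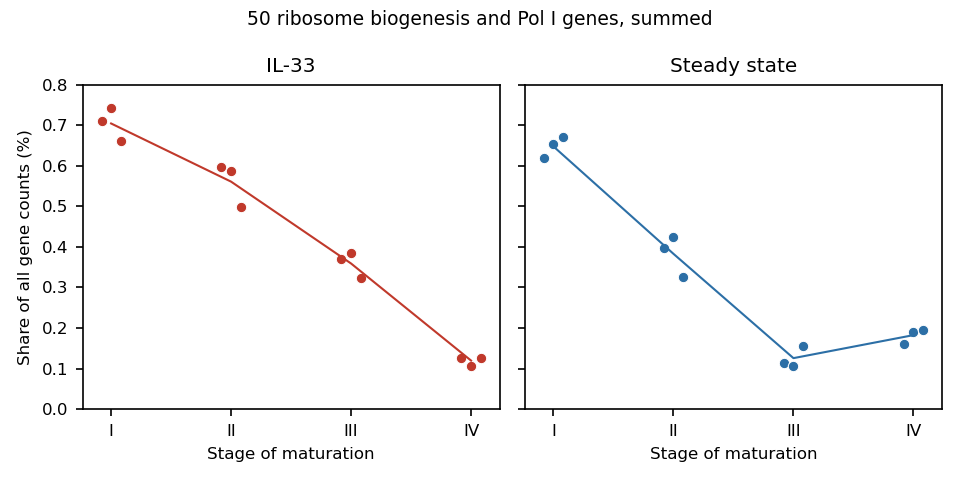
Summed counts of the 50 genes as a share of all gene counts (%, y axis from 0) at stages I to IV (x axis), IL-33 in the left panel and steady state in the right; points are libraries and lines join the means of 3. At stage III the IL-33 libraries lie between 0.323% and 0.384% and the steady-state libraries between 0.107% and 0.157%; at stage IV the order is turned round.

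At the step from stage II to III in steady state, 41 of the 50 genes fell and none rose, where 17.4% of all genes tested fell. The median log2 fold change of the 50 was -1.37, against 0.00 over all genes. Of the 41 calls, 32 held whichever single library was left out, and the total then ranged from 33 to 40. In a fit of the 6 libraries alone 24 fell, and among the genes described below the calls of Polr1e, Rrn3, Tcof1, Utp20, Heatr1, Nob1, Pes1 and Nip7 were lost. Between stages I and II of steady state 3 genes fell, where 1.29% of all genes fell: Nob1, Nop10 and Ebna1bp2, with a median over the 50 of -0.62. Of these Nob1 held whichever library was left out, but the fit of the 6 libraries alone called 0 of the 50 (Nob1 adjusted p = 0.101); 1 gene remained without steady-state stage I library 1, stage I library 2 or stage II library 3, and likewise without all 4 libraries numbered 3, while 7 fell with the replicate number as a block. At the step from stage III to IV in steady state 6 genes rose and 1 fell, where 3.55% of all genes rose and 5.67% fell. The risers were Ubtf, Mybbp1a, Ddx18, Polr1b, Nop58 and Nop10, and the gene that fell was Polr1a. With the replicate number as a block 10 rose and 1 fell; 3 rose without steady-state stage III library 2, 4 without stage IV library 2, 12 without stage III library 3, and 11 without the 4 libraries numbered 3. Ubtf, Mybbp1a and Ddx18 were the 3 risers that held whichever single library was left out. The fit of the 6 libraries alone called 0 of the 50 at this step, with adjusted p = 0.0835 for Ubtf, 0.0732 for Mybbp1a and 0.096 for Ddx18.

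Under IL-33 none of the 50 genes passed the test before the last step, although their summed share was already lower at stages II and III than at stage I. From stage I to II 0 genes changed, where 0.0157% of all genes fell; 5 of the 50 had an unadjusted p under 0.05, DESeq2 called 0 and limma-voom with sample weights 2. From stage II to III 0 genes passed, where 0% of all genes fell, although all 50 log2 fold changes were below 0, with a median of -0.62. At that step 14 genes had an unadjusted p under 0.05, DESeq2 called 0, limma-voom with sample weights 34 and the fit of the 6 libraries alone 20, all lower. Shares over all genes in those other fits are not given here, so these counts are not shown to be particular to the 50. From stage III to IV 41 of the 50 fell, where 16% of all genes fell, with a median of -1.67. Of these 41 calls, 35 held whichever library was left out, and these 35 also held under each other alternative that was run.

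**Figure D2:**
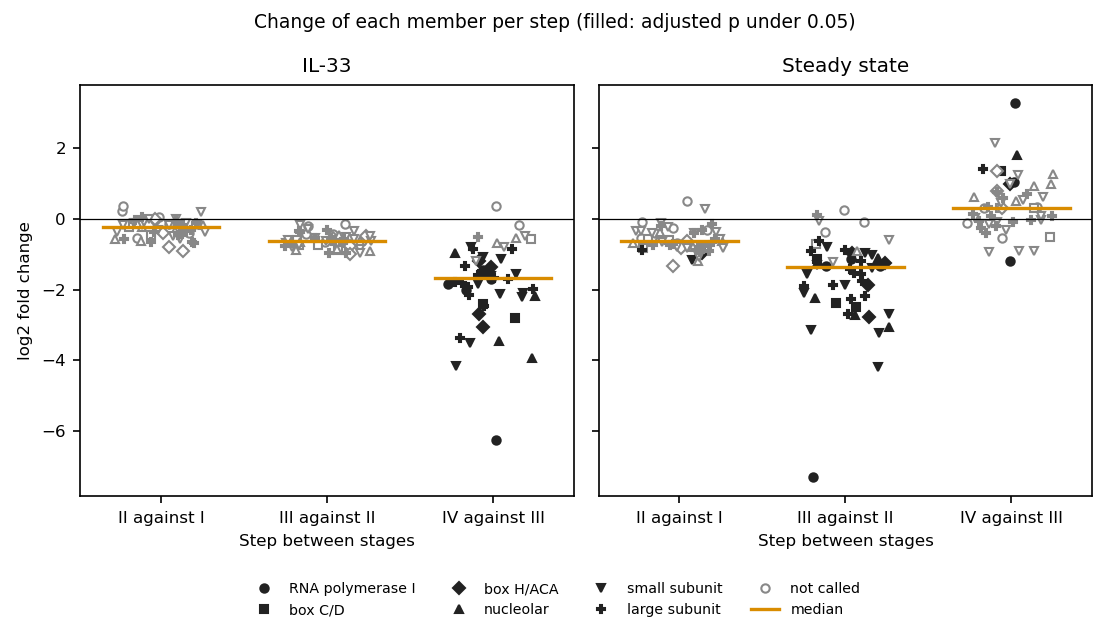
Log2 fold change (y axis) of each of the 50 genes at each step between stages (x axis), later stage over earlier, IL-33 in the left panel and steady state in the right; filled marks passed the test, open marks did not, shapes give the role and bars the median. The bulk of filled marks below 0 lies at III against II in steady state and at IV against III under IL-33.

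Set against steady state stage by stage, IL-33 eosinophils had higher levels of most of the 50 genes at stage III and lower levels of some at stage IV. At stage I 1 gene, Npm1, was higher, where 2.71% of all genes were higher; the call was lost without steady-state stage I library 1, 2 or 3 or IL-33 stage I library 2, whose Npm1 of 926 CPM stood far above the other 2, and in the fit of the 6 libraries alone. At stage II 6 were higher, Tcof1, Fbl, Ncl, Npm1, Mybbp1a and Ddx18, where 4.06% of all genes were higher. None of these 6 held whichever library was left out: 0 were called without steady-state stage II library 3 or IL-33 stage II library 2, 1 without IL-33 stage II library 1, 3 without IL-33 stage II library 3, 2 without the 4 libraries numbered 3 and 0 in the fit of the 6 libraries alone. At stage III 37 of the 50 were higher and none lower, where 18.5% of all genes were higher, with a median log2 fold change of 1.36. Of these 37 calls 29 held whichever library was left out. At stage IV 10 were lower and none higher, where 4.68% of all genes were lower: Polr1a, Polr1b, Nop56, Nop58, Dkc1, Nop10, Nolc1, Mybbp1a, Nop16 and Ddx18. Nop10, Nolc1 and Mybbp1a held whichever library was left out, and without IL-33 stage IV library 2 there were 3 lower and 1 higher. In the fit of the 6 libraries alone 3 were lower, and Polr1b had no value there.

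**Figure D3:**
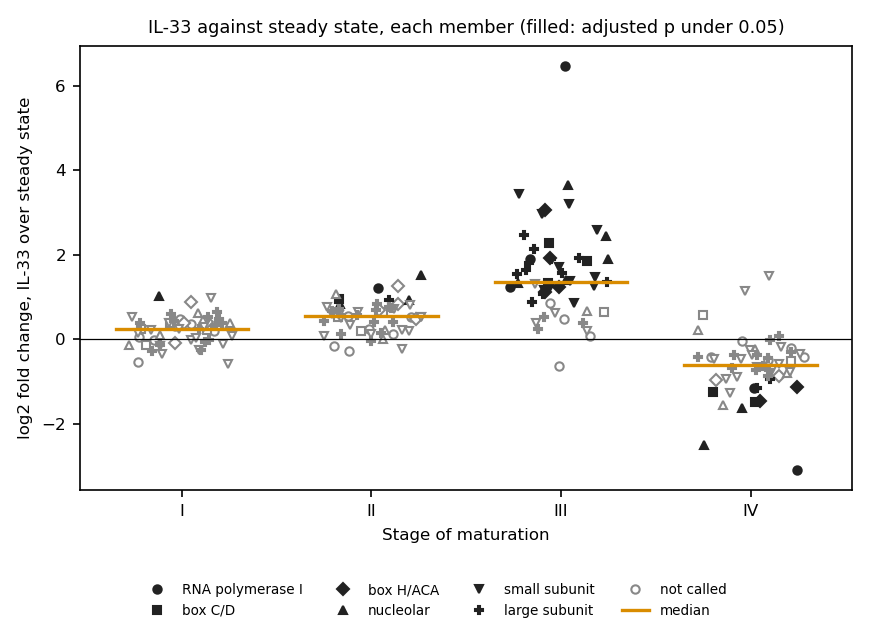
Log2 fold change of IL-33 over steady state (y axis) for each of the 50 genes at stages I to IV (x axis); filled marks passed the test, open marks did not, shapes give the role and bars the median. The medians are 0.25, 0.54, 1.36 and -0.61 from stage I to stage IV.

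The conditions were also compared in the size of each step. Between stages I and II the step differed for 0 of the 50 genes and for 0% of all genes; 2 of the 50 had an unadjusted p under 0.05, and DESeq2 and limma-voom called 0. Between stages II and III 6 of the 50 had a less negative step under IL-33, where 4.49% of all genes had a higher one: Polr1b, Mybbp1a, Nop56, Rrs1, Rrp1b and Tsr1. Polr1b and Mybbp1a held whichever library was left out. The total was 2 without steady-state stage II library 1, IL-33 stage III library 2 or IL-33 stage II library 3, and 3 without steady-state stage II library 2, steady-state stage III library 2, IL-33 stage III library 1 or IL-33 stage II library 2, but 22 without the 4 libraries numbered 3. Between stages III and IV 34 of the 50 had a lower step under IL-33, where 10.3% of all genes did, and 26 of these held whichever library was left out. The 5 with the smallest adjusted p were Mybbp1a, Nolc1, Polr1b, Nop56 and Ddx18. These differences share libraries with the single steps and are given beside them, not as separate evidence.

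Levels at IL-33 stage III lay close to those at steady-state stage II. The median log2 ratio of the means (CPM + 1) of the 50 genes was -0.01, the lowest -0.83 for Gnl3 and the highest 0.76 for Tcof1, so that 50 of 50 lay within 1 log2 unit. At IL-33 stage IV against steady-state stage III the median was -0.15 and 43 of 50 lay within 1 log2 unit, from -2.19 for Polr1a to 1.62 for Utp20. Both ratios are descriptions and were not tested. The same counts were not made over all genes, so the closeness is not shown to be particular to the 50.

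**Figure D4:**
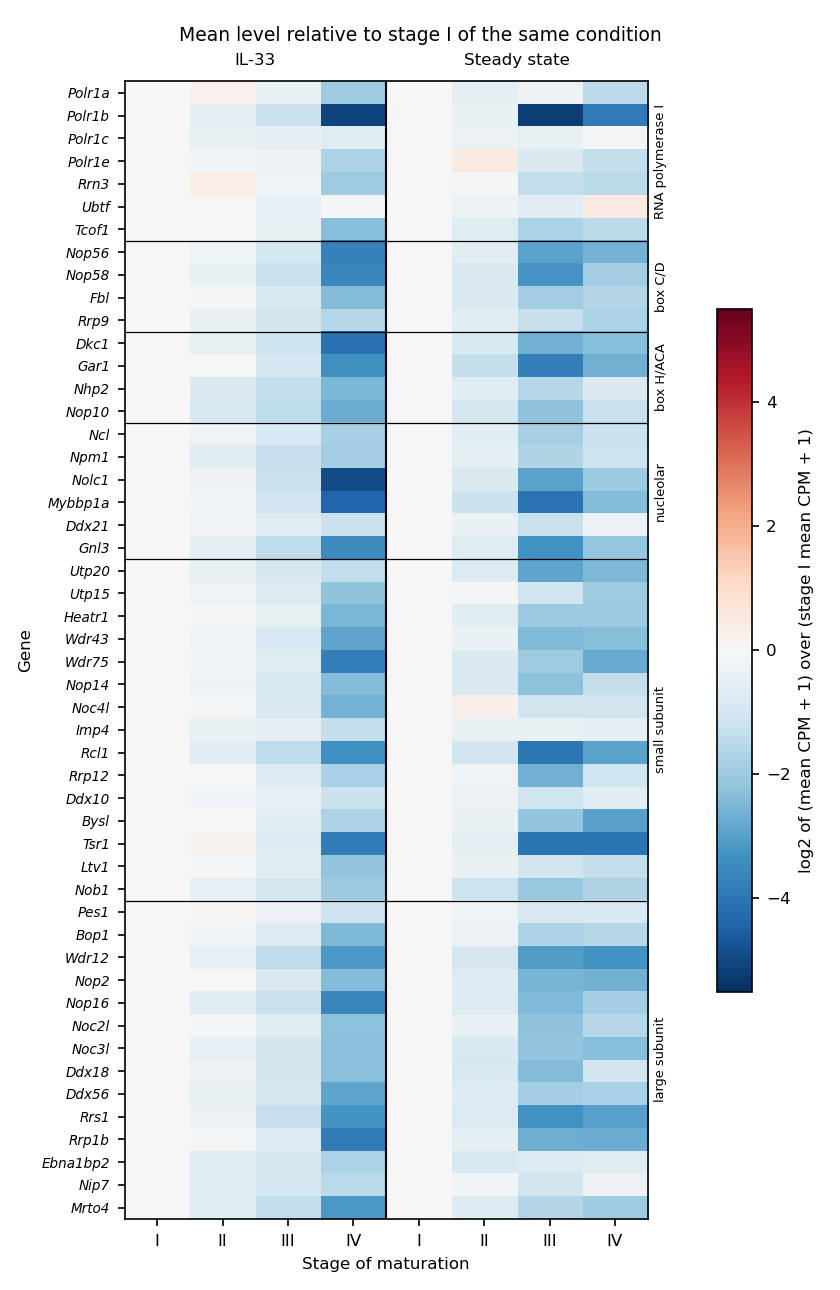
Log2 ratio of the mean level (CPM + 1) at each stage to stage I of the same condition (colour scale, blue below and red above stage I) for the 50 genes (rows, grouped by role), IL-33 in the left 4 columns and steady state in the right 4. The blue deepens at stage III in steady state and at stage IV under IL-33; Ubtf and Polr1c stay pale.

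The RNA polymerase I machinery split into genes that followed the group and genes that did not. Of its 7 genes, 5 fell from stage III to IV under IL-33, 4 fell from stage II to III in steady state, and 3 were higher under IL-33 at stage III. Under IL-33, Polr1b had 48.3, 31.4 and 43.2 CPM at stage I, 30.1, 32.4 and 22.8 at stage II, 19.5, 17.6 and 15.7 at stage III, and 0.193, 0 and 0.455 at stage IV. Steady-state Polr1b had 27.1, 53.8 and 44.2 CPM at stage I, 28.3, 57.3 and 9.59 at stage II, 0, 0 and 0.530 at stage III, and 1.82, 3.23 and 0.548 at stage IV. Polr1b encodes the second-largest subunit, and its reads all but disappeared: steady-state stage III held 0, 0 and 5 reads and IL-33 stage IV 2, 0 and 5 reads. All IL-33 stage III libraries lay above all steady-state stage III libraries. The fitted differences are large and rest on these few reads: the log2 fold change of IL-33 over steady state at stage III was 6.48 (SE 0.89, adjusted p = 9.24e-06), that of stage IV over III under IL-33 -6.28 (SE 0.85, adjusted p = 8.67e-06), and that of stage III over II in steady state -7.33 (SE 0.90, adjusted p = 2.53e-06). In steady state Polr1b had a few more reads at stage IV than at stage III (log2 fold change 3.28, SE 0.91, adjusted p = 0.0245), a call lost without stage III library 1 (adjusted p = 0.0949), stage III library 2 (0.0801) or stage IV library 2 (0.101). The lower Polr1b at IL-33 stage IV than at steady-state stage IV (log2 fold change -3.09, SE 0.86, adjusted p = 0.0203) was lost without steady-state stage IV library 2 (adjusted p = 0.0953) or IL-33 stage IV library 1 (0.068) or 2 (0.106).

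Polr1a, the largest and catalytic subunit, did not follow Polr1b after stage II in steady state. Both fell at the last step under IL-33. Under IL-33, Polr1a had 30.2, 31.1 and 32.3 CPM at stage I, 36.5, 35.6 and 38.3 at stage II, 25.4, 17.6 and 27.8 at stage III, and 9.94, 3.48 and 8.36 at stage IV. Steady-state Polr1a had 41.7, 45.0 and 48.3 CPM at stage I, 30.5, 16.8 and 45.2 at stage II, 32.2, 43.4 and 34.9 at stage III, and 16.8, 15.4 and 16.04 at stage IV. Steady-state stage III libraries overlapped those of stage II and lay above all IL-33 stage III libraries. From stage III to IV under IL-33 Polr1a fell (log2 fold change -1.70, SE 0.35, adjusted p = 0.000751). At steady-state stage III against II its log2 fold change was 0.25 (SE 0.34, adjusted p = 0.597), while at stage IV against III it was -1.19 (SE 0.34, adjusted p = 0.0294), a call lost without stage IV library 1 (adjusted p = 0.0566), 2 (0.126) or 3 (0.0782) or stage III library 2 (0.0801). At IL-33 stage IV it was lower than at steady-state stage IV (log2 fold change -1.15, SE 0.35, adjusted p = 0.0322), a call lost without steady-state stage IV library 1 (adjusted p = 0.0655) or 3 (0.0681) or IL-33 stage IV library 2 (0.179) or 3 (0.0529).

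Ubtf, the rDNA-bound architectural factor UBF, was the 1 member with its highest steady-state mean at stage IV. Under IL-33, Ubtf had 99.1, 89.9 and 97.7 CPM at stage I, 95.6, 98.2 and 86.9 at stage II, 73.8, 62.7 and 71.2 at stage III, and 82.1, 86.6 and 99.4 at stage IV. Steady-state Ubtf had 91.5, 77.4 and 61.2 CPM at stage I, 73.8, 62.6 and 55.3 at stage II, 60.2, 49.7 and 39.9 at stage III, and 109.5, 100.5 and 101 at stage IV. All steady-state stage IV libraries lay above all those of stage III, and above all IL-33 stage IV libraries. It rose from stage III to IV in steady state (log2 fold change 1.06, SE 0.20, adjusted p = 0.0017). The same step under IL-33 had a log2 fold change of 0.37 (SE 0.20, adjusted p = 0.175), although all 3 stage IV libraries lay above all 3 of stage III, and the steps did not differ by the test (difference -0.69, SE 0.28, adjusted p = 0.0957). IL-33 over steady state at stage III gave 0.47 (SE 0.20, adjusted p = 0.0729).

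Tcof1 encodes treacle, a nucleolar partner of UBF and the polymerase. Under IL-33, Tcof1 had 79.7, 63.6 and 87.3 CPM at stage I, 79.3, 74.0 and 84.3 at stage II, 57.4, 61.8 and 56.8 at stage III, and 9.46, 17.4 and 16.4 at stage IV. Steady-state Tcof1 had 64.6, 51.5 and 48.8 CPM at stage I, 22.05, 40.1 and 40.5 at stage II, 11.4, 11.4 and 24.2 at stage III, and 15.8, 30.5 and 11.9 at stage IV. Its IL-33 libraries lay above all steady-state libraries at stages II and III and overlapped them at stages I and IV. Tcof1 was higher under IL-33 at stage III (log2 fold change 1.90, SE 0.35, adjusted p = 0.000261). Tcof1 fell at the last step under IL-33 (log2 fold change -2.02, SE 0.35, adjusted p = 0.000152). In steady state its lower level at stage III than at II (log2 fold change -1.12, SE 0.35, adjusted p = 0.0155) was lost without stage II library 2 (adjusted p = 0.0559) or 3 (0.0501) or stage III library 1 (0.0729) or 2 (0.0768).

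Rrn3, the initiation factor with the upstream E-boxes shown above, fell at the last step under IL-33 (log2 fold change -1.85, SE 0.45, adjusted p = 0.00298). Under IL-33, Rrn3 had 34.4, 26.8 and 34.9 CPM at stage I, 34.4, 41.7 and 47.5 at stage II, 13.4, 36.0 and 31.1 at stage III, and 4.34, 7.06 and 10.9 at stage IV. Steady-state Rrn3 had 18.4, 34.3 and 39.2 CPM at stage I, 36.2, 17.3 and 32.8 at stage II, 8.98, 7.09 and 18.3 at stage III, and 12.5, 11.5 and 7.403 at stage IV. Stage III libraries of the conditions overlapped, through IL-33 library 1 and steady-state library 3. The steady-state difference of stage III from II (log2 fold change -1.32, SE 0.44, adjusted p = 0.0229) was lost without stage II library 1 (adjusted p = 0.0813) or 3 (0.0553) or stage III library 1 (0.0821) or 2 (0.104). IL-33 over steady state at stage III (log2 fold change 1.22, SE 0.44, adjusted p = 0.0343) was lost without steady-state library 1 (adjusted p = 0.108) or 2 (0.139) or IL-33 library 2 (0.157) or 3 (0.0982). Polr1c, a subunit shared with RNA polymerase III, passed no test, with log2 fold changes of 0.08 for IL-33 over steady state at stage III, -0.16 for stage IV over III under IL-33 and -0.08 for stage III over II in steady state. Polr1e, the subunit PAF53, fell at the last step under IL-33 (log2 fold change -1.44, SE 0.38, adjusted p = 0.00626). In steady state Polr1e fell from stage II to III (log2 fold change -1.34, SE 0.38, adjusted p = 0.00874).

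**Figure D5:**
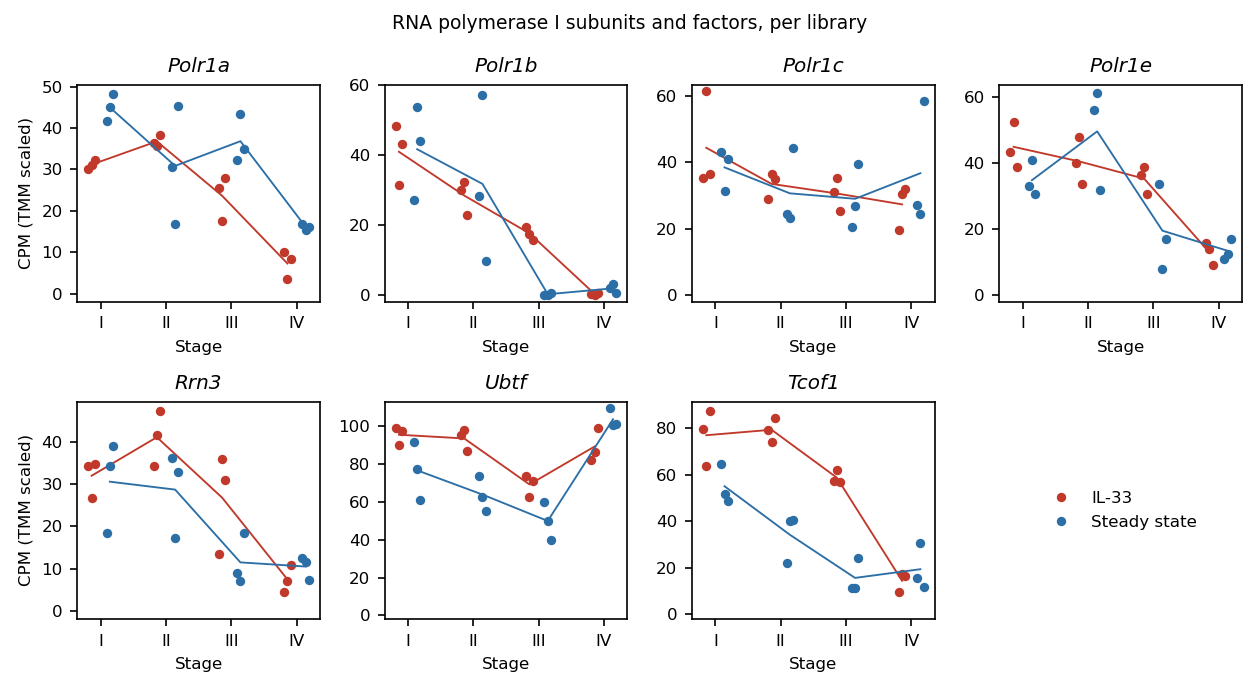
Levels (CPM, y axis; each panel has its own scale) of the 7 RNA polymerase I genes at stages I to IV (x axis), IL-33 in red left of steady state in blue; points are libraries and lines join means of 3. Polr1b reaches the floor at stage III in steady state and at stage IV under IL-33, while Ubtf is highest at steady-state stage IV.

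Of the box C/D proteins 3 of 4 fell from stage III to IV under IL-33, 3 of 4 fell from stage II to III in steady state, and 3 of 4 were higher under IL-33 at stage III, each time Nop56, Nop58 and Fbl. Under IL-33, Nop56 had 371, 347 and 322 CPM at stage I, 312, 341 and 238 at stage II, 189, 199.8 and 146 at stage III, and 42.6, 16.3 and 18.2 at stage IV. Steady-state Nop56 had 358, 357 and 431 CPM at stage I, 362, 201 and 209 at stage II, 43.0, 40.5 and 63.7 at stage III, and 67.2, 55.2 and 61.8 at stage IV. Its IL-33 libraries lay above all steady-state libraries at stage III and below them all at stage IV. The core protein Nop56 was higher under IL-33 at stage III (log2 fold change 1.86, SE 0.30, adjusted p = 6.55e-05). Nop56 fell at the last step under IL-33 (log2 fold change -2.79, SE 0.31, adjusted p = 8.14e-07). In steady state Nop56 fell from stage II to III (log2 fold change -2.39, SE 0.31, adjusted p = 4.32e-06). At stage IV it was lower under IL-33 (log2 fold change -1.26, SE 0.30, adjusted p = 0.00738), a call lost without IL-33 stage IV library 2 (adjusted p = 0.0635).

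Nop58 pairs with Nop56 in the same particle. Under IL-33, Nop58 had 184, 228 and 138 CPM at stage I, 192, 133 and 104 at stage II, 89.7, 73.2 and 70.7 at stage III, and 11.4, 10.5 and 21.5 at stage IV. Steady-state Nop58 had 114, 131 and 229 CPM at stage I, 74.6, 70.8 and 127 at stage II, 10.9, 11.5 and 25.5 at stage III, and 20.5, 39.4 and 63.1 at stage IV. Its steady-state library 3 was the highest of its group at all 4 stages. Nop58 was higher under IL-33 at stage III (log2 fold change 2.28, SE 0.42, adjusted p = 0.000239). Nop58 fell at the last step under IL-33 (log2 fold change -2.42, SE 0.42, adjusted p = 0.000141). In steady state Nop58 fell from stage II to III (log2 fold change -2.50, SE 0.42, adjusted p = 9.6e-05). At stage IV it was lower under IL-33 (log2 fold change -1.50, SE 0.41, adjusted p = 0.0189), a call lost without steady-state stage IV library 3 (adjusted p = 0.14) or IL-33 stage IV library 1 (0.0845) or 2 (0.107). Its rise from stage III to IV in steady state (log2 fold change 1.35, SE 0.41, adjusted p = 0.0396) was lost without stage III library 1 (adjusted p = 0.151) or 2 (0.126) or stage IV library 2 (0.0624) or 3 (0.222). Fibrillarin (Fbl) is the methyltransferase of the particle. Under IL-33, Fbl had 119, 126 and 109 CPM at stage I, 100.4, 120.4 and 102 at stage II, 55.8, 77.0 and 61.8 at stage III, and 23.3, 17.2 and 25.5 at stage IV. Steady-state Fbl had 113, 93.1 and 91.6 CPM at stage I, 51.8, 67.9 and 48.6 at stage II, 30.3, 25.7 and 20.8 at stage III, and 20.6, 23.7 and 50.6 at stage IV. Stage III libraries of the 2 conditions did not overlap (log2 fold change 1.34, SE 0.28, adjusted p = 0.000838). Fbl fell at the last step under IL-33 with a log2 fold change of -1.56 (adjusted p = 0.000217) and from stage II to III in steady state with -1.13 (adjusted p = 0.0033). Rrp9, which marks the box C/D particle that guides early cleavage, passed no test in any of the 3 comparisons, with IL-33 over steady state at 0.64 at stage III.

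All 4 box H/ACA proteins fell from stage III to IV under IL-33 and from stage II to III in steady state, and all 4 were higher under IL-33 at stage III. The pseudouridine synthase dyskerin (Dkc1) had 188, 199 and 198 CPM at stage I, 150.04, 168 and 124 at stage II, 89.8, 93.1 and 78.8 at stage III, and 19.2, 5.09 and 7.00 at stage IV under IL-33. Steady-state Dkc1 had 132, 149 and 164 CPM at stage I, 67.8, 109 and 72.4 at stage II, 17.8, 10.6 and 40.2 at stage III, and 18.0, 21.2 and 47.0 at stage IV. Stages II and III had no overlap between the conditions, nor did stage I, with IL-33 higher each time. Dkc1 fell at the last step under IL-33 (log2 fold change -3.07, SE 0.46, adjusted p = 2.95e-05). In steady state Dkc1 fell from stage II to III (log2 fold change -1.86, SE 0.44, adjusted p = 0.00227). Dkc1 was higher under IL-33 at stage III (log2 fold change 1.93, SE 0.44, adjusted p = 0.00172). At stage IV the lower Dkc1 under IL-33 (log2 fold change -1.46, SE 0.44, adjusted p = 0.0325) was lost without steady-state library 3 (adjusted p = 0.236) or IL-33 library 2 (0.17) or 3 (0.123). Gar1, a small structural protein of the particle, had 69.8, 49.8 and 42.6 CPM at stage I, 59.3, 56.6 and 47.2 at stage II, 30.2, 28.8 and 23.3 at stage III, and 3.96, 4.82 and 4.00 at stage IV under IL-33. Steady-state Gar1 had 68.6, 59.6 and 44.7 CPM at stage I, 26.1, 28.4 and 13.5 at stage II, 5.83, 1.37 and 2.65 at stage III, and 4.69, 6.10 and 14.5 at stage IV. The stage III groups were far apart, at log2 fold change 3.06 for IL-33 over steady state (SE 0.46, adjusted p = 2.55e-05). From stage III to IV under IL-33 Gar1 fell (log2 fold change -2.68, SE 0.45, adjusted p = 8.91e-05). In steady state Gar1 fell from stage II to III (log2 fold change -2.79, SE 0.46, adjusted p = 6.56e-05).

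Nop10, the smallest of the H/ACA proteins, had 194, 426 and 251 CPM at stage I, 148, 165 and 152 at stage II, 108, 133 and 91.8 at stage III, and 44.6, 38.4 and 46.5 at stage IV under IL-33. Steady-state Nop10 had 259, 215 and 186 CPM at stage I, 133, 126 and 77.2 at stage II, 43.9, 36.5 and 60.6 at stage III, and 80.8, 107 and 94.9 at stage IV. Its IL-33 libraries lay above all steady-state libraries at stages II and III and below them all at stage IV. IL-33 stage I library 2 was far above its 2 partners, and the same library was the highest for Npm1, Nhp2, Ebna1bp2 and Nip7. Nop10 was higher under IL-33 at stage III (log2 fold change 1.24, SE 0.27, adjusted p = 0.00115) and lower at stage IV (log2 fold change -1.12, SE 0.27, adjusted p = 0.00761). It fell at the last step under IL-33 (log2 fold change -1.36, SE 0.27, adjusted p = 0.000528). In steady state Nop10 fell from stage II to III (log2 fold change -1.25, SE 0.27, adjusted p = 0.00107). Its rise from stage III to IV in steady state (log2 fold change 1.00, SE 0.27, adjusted p = 0.0202) was lost without stage III library 1 (adjusted p = 0.0719) or 2 (0.0797) or stage IV library 2 (0.0506).

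Of the 6 nucleolar proteins with several tasks, 4 fell from stage III to IV under IL-33 (all but Npm1 and Ddx21), 5 fell from stage II to III in steady state (all but Ddx21) and the same 5 were higher under IL-33 at stage III. Mybbp1a, a nucleolar repressor of rDNA transcription, had the smallest adjusted p of the 50 for the difference of the last step between conditions. Under IL-33, Mybbp1a had 237, 142 and 229.9 CPM at stage I, 179, 209 and 167 at stage II, 88.0, 118 and 89.99 at stage III, and 4.34, 12.8 and 9.55 at stage IV. Steady-state Mybbp1a had 133, 172 and 139 CPM at stage I, 62.7, 96.6 and 35.2 at stage II, 11.2, 4.46 and 7.84 at stage III, and 25.7, 29.9 and 26.6 at stage IV. The conditions did not overlap at stages II, III and IV, with IL-33 higher at stages II and III and lower at stage IV. At stage III Mybbp1a was higher under IL-33 (log2 fold change 3.66, SE 0.39, adjusted p = 5.63e-07), and at stage IV lower (log2 fold change -1.62, SE 0.37, adjusted p = 0.00483). The step from stage III to IV was a fall under IL-33 (log2 fold change -3.47, SE 0.39, adjusted p = 7.64e-07) and a rise in steady state (log2 fold change 1.81, SE 0.37, adjusted p = 0.00318), and the difference of the steps was -5.28 (SE 0.53, adjusted p = 1.01e-06). Nolc1, a chaperone of both kinds of particle, had 2.03, 6.79 and 5.09 CPM at IL-33 stage IV, against 11.1, 33.1 and 35.4 at steady-state stage IV. These groups did not overlap (log2 fold change -2.51, SE 0.39, adjusted p = 0.000119), and neither did those of stage III, where Nolc1 had 68.8, 83.9 and 64.0 CPM under IL-33 and 15.2, 10.1 and 14.8 in steady state (log2 fold change 2.43, SE 0.38, adjusted p = 3.52e-05).

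Nucleolin (Ncl) and nucleophosmin (Npm1), abundant RNA-binding proteins, stood at 28.5% and 26.1% of their stage I mean at IL-33 stage IV, where the median of the 50 was 17.9%, and at 28.5% and 31.7% at steady-state stage III, where the median was 23.4%. Under IL-33, Ncl had 809, 744 and 695 CPM at stage I, 751, 691 and 536 at stage II, 460.1, 426 and 364 at stage III, and 242, 173 and 224 at stage IV. Steady-state Ncl had 436.6, 605 and 689 CPM at stage I, 303, 440.6 and 372 at stage II, 131, 143 and 219.6 at stage III, and 199, 249 and 308 at stage IV. Its IL-33 libraries lay above all steady-state libraries at stages I, II and III. Ncl was higher under IL-33 at stage III (log2 fold change 1.34, SE 0.24, adjusted p = 0.000156). Ncl fell at the last step under IL-33 (log2 fold change -0.97, SE 0.24, adjusted p = 0.00324). In steady state Ncl fell from stage II to III (log2 fold change -1.18, SE 0.24, adjusted p = 0.000548). Under IL-33, Npm1 had 474, 926 and 494 CPM at stage I, 411, 476 and 333 at stage II, 278, 319 and 192 at stage III, and 165, 165 and 165 at stage IV. Steady-state Npm1 had 322, 330.3 and 287 CPM at stage I, 249, 219 and 176 at stage II, 81.0, 75.9 and 141 at stage III, and 132, 121 and 174 at stage IV. Npm1 was higher under IL-33 at stage III (log2 fold change 1.41, SE 0.27, adjusted p = 0.000427). In steady state Npm1 fell from stage II to III (log2 fold change -1.11, SE 0.27, adjusted p = 0.00307), while its last step under IL-33 was -0.68 (SE 0.27, adjusted p = 0.0633). Npm1 has 8 pseudogene copies in GENCODE M21 that match its longest coding transcript at 90% identity or more over at least 200 bases. Nop56 has 6, and reads shared with such copies make both values uncertain. Of the 50 genes 16 have pseudogene copies, and 20 overlap exons of another gene, 4 of them by over 5% of their exon bases. Counting matches in genes of any type, Wdr12 has 49, 3 of them pseudogenes, and Nop58 has 38, 0 of them pseudogenes. Values of Wdr12 and Nop58 carry the same uncertainty.

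The 15 small-subunit factors build the processome around the growing precursor, cut the precursor or act later in assembly. Of them 12 fell from stage III to IV under IL-33, 12 fell from stage II to III in steady state, and 11 were higher under IL-33 at stage III. Bysl, a late assembly factor, had 42.6, 46.2 and 41.8 CPM at stage I, 49.8, 47.1 and 32.4 at stage II, 31.2, 30.7 and 22.1 at stage III, and 14.6, 12.9 and 11.1 at stage IV under IL-33. Steady-state Bysl had 59.2, 53.2 and 44.1 CPM at stage I, 36.3, 54.4 and 28.5 at stage II, 8.98, 8.46 and 15.1 at stage III, and 9.46, 6.00 and 1.78 at stage IV. It was the panel gene whose IL-33 libraries lay above all steady-state libraries at both stages III and IV, with a log2 fold change of 1.37 at stage III (adjusted p = 0.00969) and 1.14 at stage IV (adjusted p = 0.0626). Bysl fell from stage II to III in steady state (log2 fold change -1.87, SE 0.40, adjusted p = 0.000925). Its step from stage III to IV under IL-33 (log2 fold change -1.12, SE 0.39, adjusted p = 0.0323) was lost without IL-33 stage III library 1 (adjusted p = 0.0903) or 2 (0.0932) or stage IV library 1 (0.0525), 2 (0.0798) or 3 (0.108). Another gene, Ccnd3, overlaps 9.4% of its exon bases, and these libraries do not mark the strand.

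Nob1, the endonuclease that makes the last cut of the small-subunit RNA, had 62.7, 75.8 and 60.8 CPM at stage I, 52.6, 48.2 and 42.2 at stage II, 40.7, 34.4 and 25.8 at stage III, and 11.9, 17.3 and 18.2 at stage IV under IL-33. Steady-state Nob1 had 59.3, 66.0 and 70.6 CPM at stage I, 25.5, 33.0 and 28.8 at stage II, 14.9, 14.6 and 14.8 at stage III, and 15.4, 15.9 and 29.5 at stage IV. Each stage lay below the one before it, without overlap, up to stage IV under IL-33 and up to stage III in steady state. Nob1 fell at the last step under IL-33 (log2 fold change -1.09, SE 0.27, adjusted p = 0.00389), and in steady state it fell from stage I to II (log2 fold change -1.17, SE 0.27, adjusted p = 0.0139) and again from stage II to III (log2 fold change -0.97, SE 0.27, adjusted p = 0.00794). At stage III it was higher under IL-33 (log2 fold change 1.18, SE 0.27, adjusted p = 0.00189). Heatr1, needed for polymerase I transcription and early processing, had 64.4, 45.5 and 84.7 CPM at stage I, 63.4, 53.3 and 67.9 at stage II, 43.6, 35.9 and 65.2 at stage III, and 10.9, 5.90 and 14.4 at stage IV under IL-33. Steady-state Heatr1 had 55.1, 87.0 and 107 CPM at stage I, 27.0, 66.4 and 66.3 at stage II, 26.2, 9.49 and 24.8 at stage III, and 19.004, 17.5 and 23.2 at stage IV. At stage III the conditions did not overlap (log2 fold change 1.26, SE 0.40, adjusted p = 0.0195), but the call was lost without steady-state library 2 or IL-33 library 3 (adjusted p = 0.102 each). Heatr1 fell at the last step under IL-33 (log2 fold change -2.21, SE 0.42, adjusted p = 0.000317); its steady-state step from stage II to III (log2 fold change -1.40, SE 0.41, adjusted p = 0.0102) was lost without stage III library 2 (adjusted p = 0.0617).

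Utp20, a very large processome component, had 19.1, 19.2 and 20.3 CPM at stage I, 12.9, 13.8 and 18.5 at stage II, 6.08, 10.0 and 13.2 at stage III, and 12.7, 1.34 and 6.91 at stage IV under IL-33. Steady-state Utp20 had 14.5, 23.3 and 17.7 CPM at stage I, 13.6, 6.51 and 11.4 at stage II, 1.09, 1.49 and 2.23 at stage III, and 1.91, 1.02 and 4.66 at stage IV. The IL-33 libraries of stage IV were spread widely and overlapped those of stage III. Utp20 was higher under IL-33 at stage III (log2 fold change 2.59, SE 0.64, adjusted p = 0.0032). In steady state Utp20 fell from stage II to III (log2 fold change -2.70, SE 0.64, adjusted p = 0.0024), while the last step under IL-33 gave -0.48 (SE 0.59, adjusted p = 0.574). Tsr1, a GTPase-like late factor, had 11.9, 17.4 and 14.8 CPM at IL-33 stage III, against 1.46, 0.571 and 2.01 at steady-state stage III (log2 fold change 3.43, SE 0.74, adjusted p = 0.00114). Its exons share 32.3% of their bases with Srr, so the reads of the pair cannot be told apart there.

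Of the 14 large-subunit factors 13 fell from stage III to IV under IL-33 (all but Nip7), 13 fell from stage II to III in steady state (all but Ebna1bp2), and 11 were higher under IL-33 at stage III. Pes1, Bop1 and Wdr12 form 1 complex that is needed for maturation of the large-subunit RNA, and all 3 fell at both of those steps. Under IL-33, Pes1 had 117, 99.5 and 115 CPM at stage I, 124, 116 and 105 at stage II, 80.1, 96.7 and 93.4 at stage III, and 31.4, 50.9 and 67.5 at stage IV. Steady-state Pes1 had 112, 130.0 and 123 CPM at stage I, 147, 85.1 and 88.0 at stage II, 71.1, 66.7 and 67.5 at stage III, and 59.2, 68.0 and 73.8 at stage IV. Libraries of stage IV lay below all those of stage III under IL-33 for Pes1. Under IL-33, Bop1 had 139, 150.5 and 181 CPM at stage I, 119.5, 165 and 134 at stage II, 82.9, 115 and 90.4 at stage III, and 28.2, 31.6 and 23.3 at stage IV. Steady-state Bop1 had 147, 96.4 and 83.1 CPM at stage I, 115, 94.5 and 50.8 at stage II, 34.6, 32.5 and 31.2 at stage III, and 41.7, 39.4 and 26.6 at stage IV. Bop1 libraries of the conditions did not overlap at stages II and III. Under IL-33, Wdr12 had 157, 193 and 153 CPM at stage I, 137, 135 and 100.0 at stage II, 54.7, 75.4 and 59.5 at stage III, and 25.0, 11.8 and 17.4 at stage IV. Steady-state Wdr12 had 162, 190.3 and 178 CPM at stage I, 96.5, 110.3 and 72.8 at stage II, 25.2, 12.7 and 23.1 at stage III, and 13.7, 15.1 and 22.6 at stage IV. At steady-state stage III the libraries of all 3 genes lay below all those of stage II. From stage III to IV under IL-33 the log2 fold change was -0.85 for Pes1 (SE 0.24), -1.79 for Bop1 (SE 0.28) and -1.81 for Wdr12 (SE 0.29), with adjusted p = 0.0099, 4.54e-05 and 5.9e-05 in that order. The call of Pes1 was lost without IL-33 stage IV library 1 (adjusted p = 0.0714). From stage II to III in steady state it was -0.64 for Pes1 (SE 0.24), -1.41 for Bop1 (SE 0.28) and -2.19 for Wdr12 (SE 0.29), with adjusted p = 0.0428, 0.000479 and 6.97e-06. Here the call of Pes1 was lost without stage II library 1 (adjusted p = 0.31) or stage III library 1 (0.0759), 2 (0.102) or 3 (0.0871). Whether the genes' fold changes differ from each other was not tested.

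Bop1 and Wdr12 were higher under IL-33 at stage III, with log2 fold changes of 1.55 (SE 0.28, adjusted p = 0.000188) and 1.63 (SE 0.29, adjusted p = 0.000158), while Pes1 gave 0.40 (SE 0.24, adjusted p = 0.208). Nop2, the RNA methyltransferase with the upstream E-box shown above, had 111, 66.8 and 86.9 CPM at stage I, 96.1, 91.4 and 70.8 at stage II, 51.4, 61.2 and 38.8 at stage III, and 20.2, 15.1 and 12.6 at stage IV under IL-33. Steady-state Nop2 had 97.2, 98.6 and 124 CPM at stage I, 74.4, 81.6 and 36.5 at stage II, 21.1, 12.3 and 17.8 at stage III, and 24.5, 14.5 and 9.32 at stage IV. The conditions were apart at stage III (log2 fold change 1.56, SE 0.34, adjusted p = 0.00126) and overlapped at stage IV. Nop2 fell at the last step under IL-33 (log2 fold change -1.66, SE 0.34, adjusted p = 8e-04). In steady state Nop2 fell from stage II to III (log2 fold change -1.91, SE 0.35, adjusted p = 0.000207). Nip7, a late assembly factor, had 78.6, 145 and 77.3 CPM at stage I, 59.7, 72.8 and 55.6 at stage II, 56.2, 54.3 and 40.4 at stage III, and 26.4, 41.5 and 38.9 at stage IV under IL-33. Steady-state Nip7 had 76.7, 73.0 and 66.8 CPM at stage I, 66.9, 58.9 and 69.0 at stage II, 29.9, 32.7 and 42.9 at stage III, and 60.3, 58.8 and 58.8 at stage IV. At steady-state stage IV its libraries lay above all those of stage III and above all IL-33 stage IV libraries, though neither passed the test (log2 fold change 0.75, SE 0.25, adjusted p = 0.0633 for the step, -0.74 and adjusted p = 0.0593 between conditions). Ddx18, a helicase, rose from stage III to IV in steady state, with 33.7, 33.1 and 42.5 CPM at stage IV and 15.8, 8.46 and 16.8 at stage III (log2 fold change 1.41, SE 0.28, adjusted p = 0.00209).

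Among other genes of the pathway the medians had the same signs and a smaller share passed the test. Over all genes tested, 16% fell and 13.1% rose from stage III to IV under IL-33, 17.4% fell and 17.2% rose from stage II to III in steady state, and 18.5% were higher and 14.9% lower under IL-33 at stage III. Of 44 further small-subunit factors 18 fell from stage III to IV under IL-33, 15 fell and 2 rose from stage II to III in steady state, and 14 were higher and 2 lower under IL-33 at stage III. The median log2 fold changes were -0.66, -0.61 and 0.58 in that order. Of 49 further large-subunit factors 26 fell and 1 rose, 18 fell and 1 rose, and 18 were higher and none lower in the same 3 comparisons, with medians of -0.98, -0.64 and 0.58. Of 14 genes of the RNA exosome, which trims precursors, 9 fell, 7 fell and 1 rose, and 9 were higher and 1 lower, with medians of -0.87, -0.71 and 0.82.

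The remaining subunits of RNA polymerase I, among them those it shares with other polymerases, and its remaining factors had few calls and medians near 0. Of these 15 genes 1 fell (Pwp1) and 1 rose (Polr2e) from stage III to IV under IL-33, 0 fell and 2 rose (Polr2e and Polr2k) from stage II to III in steady state, and 1 was higher (Polr2l) under IL-33 at stage III. The medians were 0.02, -0.01 and 0.01 on the log2 scale. Scaled by library totals, 4 of the 15 fell and 0 rose at the steady-state step. Of 20 genes of RNA polymerase III, which makes transfer and other small RNAs, 6 fell and 1 rose, 4 fell, and 5 were higher in the same comparisons, with medians of -0.50, -0.26 and 0.13. The steady-state and between-condition counts of polymerase III genes, 4 and 5 of 20, are near the shares over all genes. The differences between these lists and the 50 genes were not tested.

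Myc, the E-box binding factor named above, was lowest at stage III in steady state and at stage IV under IL-33. Under IL-33, Myc had 290.3, 145 and 210.3 CPM at stage I, 243, 133 and 128 at stage II, 128, 69.1 and 61.4 at stage III, and 12.6, 4.02 and 4.27 at stage IV. Steady-state Myc had 276, 274 and 161 CPM at stage I, 140.3, 78.6 and 32.0 at stage II, 8.98, 0.571 and 0 at stage III, and 12.5, 23.6 and 6.31 at stage IV. The stage III groups did not overlap. Myc was higher under IL-33 at stage III (log2 fold change 4.78, SE 0.87, adjusted p = 0.000217). Myc fell at the last step under IL-33 (log2 fold change -3.63, SE 0.81, adjusted p = 0.00152). In steady state Myc fell from stage II to III (log2 fold change -4.74, SE 0.87, adjusted p = 0.000233). These 3 calls held in each alternative and whichever library was left out, but the value between conditions at stage III then ranged from 4.17 to 8.23 and that of stage III against II in steady state from -8.18 to -4.14. Steady-state stage III held 74, 5 and 0 reads of Myc. Whether Myc has a part in the levels of the genes described above was not tested.

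Cell cycle genes fell and were higher at the same steps and stage. Of 27 S phase genes 27 fell from stage III to IV under IL-33, 27 fell from stage II to III in steady state and 26 were higher under IL-33 at stage III, with median log2 fold changes of -3.30, -2.85 and 2.72. Their summed level was 4339 to 5051 CPM at IL-33 stage III and 698 to 1172 CPM at steady-state stage III. Of 28 genes of G2 phase and mitosis 27 fell, 28 fell and 28 were higher in the same comparisons. At steady-state stage IV, where 6 of the 50 genes rose, 1 S phase gene rose and 0 fell, and 1 gene of the mitotic list rose and 5 fell. The part of cell division in the levels of the 50 genes was not tested.

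Markers of other cell types also differed between the groups. Summed CPM of 12 neutrophil markers was 2655 to 3893 at IL-33 stage III, against 19763 to 23509 at steady-state stage III, with 11 of 12 lower under IL-33, and 6278 to 10416 at IL-33 stage IV, against 10542 to 26433 at steady-state stage IV, with 2 of 12 lower. Steady-state stage II had 16053 to 25422, and from stage II to III in steady state 2 of the 12 rose and 2 fell, close to the shares over all genes. Under IL-33 6 of the 12 rose from stage III to IV and none fell, with Retnlg at a log2 fold change of 3.32 (adjusted p = 3.81e-05). Of 12 monocyte and macrophage markers 10 were lower and 1 higher under IL-33 at stage III, with sums of 2942 to 3154 under IL-33 and 4418 to 5131 in steady state. All 5 primary granule genes, which mark early myeloid cells, fell from stage II to III in steady state, to 159 to 439.7 CPM at stage III, against 2465 to 9763 at stage II. Under IL-33 3 of the primary granule genes rose from stage III to IV (Elane, Prtn3 and Ctsg) and 1 fell (Ms4a3), with sums of 133 to 783 CPM at stage IV and 254 to 312 at stage III. At the same step 6 of the 12 monocyte and macrophage markers rose, among them Csf1r (log2 fold change 2.79, adjusted p = 1.25e-06), and 1 fell, with sums of 4008 to 4447 and 2942 to 3154. Of 8 basophil and mast cell markers 6 were higher and 1 lower under IL-33 at stage III. Of 8 stem and progenitor markers, 7 of them tested, 4 fell and 1 rose from stage II to III in steady state. Of 8 T and NK cell genes, 4 of them tested, Cd3d rose (log2 fold change 4.12, adjusted p = 8.87e-05) and Nkg7 fell (-4.11, adjusted p = 6.56e-07) from stage II to III in steady state, and under IL-33 at stage III Nkg7 was higher (3.12, adjusted p = 9.54e-06) and Cd3d lower (-1.75, adjusted p = 0.0318). Between stages III and IV under IL-33 0 of the 4 passed, and 0 had an unadjusted p under 0.05. Their summed level was 306 to 367 CPM at IL-33 stage III and 24.1 to 84.6 CPM at steady-state stage III, and Cd3e reached at most 0.0852 CPM in a library. Reads assigned to no feature made up 9.19% to 16.6% under IL-33 and 17.8% to 30.5% in steady state. The part of these differences in the results was not tested.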

How the data were processed

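Sorted eosinophils were profiled by RNA sequencing of full-length cDNA (SMART-Seq v4, 17 amplification cycles, Nextera XT), a protocol that does not mark strand and carries no molecular identifiers, per the labels' protocols. The deposited values are whole-number counts of reads per gene, 1 file per library, with 2 entries that name no gene and were left out of library sizes and tests (reads in no feature, 9.19% to 30.5% of a library, and ambiguous reads, 1.73% to 2.60%). The submitters' processing notes name STAR 2.6.1a, DESeq2 and mm10; for the counting tool, strand setting and annotation the entry is: not given in the sources used here. The files do not state how the authors' reads shared between overlapping genes or pseudogene copies were handled.

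From the counts, edgeR 4.0.16 (R 4.3.3) fitted 1 quasi-likelihood model over 8 groups and 24 libraries with filterByExpr and TMM scaling, and 13 comparisons were adjusted by Benjamini-Hochberg over 12743 genes. Standard errors are the size of the log2 fold change divided by the square root of F. Alternatives used DESeq2 1.42.0, limma 3.58.1 (voom with sample weights), other scalings, no filter, fewer libraries and the replicate number as a block. The scripts were tested on simulated counts. The 50 genes, the lists of other genes and the tests were chosen with earlier results of these data known. Same-numbered libraries correlated above 0.1 in every pair for stage II against I and stage IV against III in steady state (0.117 to 0.298 and 0.112 to 0.216) and for stage II against I and stage III against II under IL-33 (0.154 to 0.238 and 0.131 to 0.243); the number is the only source of that pairing. Values per library were given for a panel covering every role, and fold changes for the panel, for the 5 genes with the smallest adjusted p in a step difference and for genes at the ends of a comparison. Gene overlaps were read from GENCODE M21, and pseudogene copies were searched with blastn 2.17.0.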

Additional observations from a re-analysis of the deposited data

Results flagged for a closer look

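Steps that differed between IL-33 and steady state were marked by the test of the difference itself, the interaction contrast of edgeR's quasi-likelihood fit; values are the IL-33 step minus the steady-state step on the log2 scale. From stage II to III, 6 of the 50 genes differed, and the 5 with the smallest adjusted p were Polr1b (6.64, adjusted p = 0.000656), Mybbp1a (2.14, adjusted p = 0.0119), Nop56 (1.65, adjusted p = 0.0177), Rrs1 (1.74, adjusted p = 0.0318) and Rrp1b (1.64, adjusted p = 0.0378). Of these Polr1b and Mybbp1a held whichever library was left out. Nop56 was lost without steady-state stage II library 1 (adjusted p = 0.0597), steady-state stage III library 2 (0.0502), IL-33 stage III library 2 (0.0519) or IL-33 stage II library 3 (0.0608); Rrs1 was lost without any of 8 libraries and Rrp1b without any of 9.

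From stage III to IV, 34 of the 50 genes differed, and the 5 with the smallest adjusted p were Mybbp1a (-5.28, adjusted p = 1.01e-06), Nolc1 (-4.94, adjusted p = 1.96e-06), Polr1b (-9.56, adjusted p = 1.54e-05), Nop56 (-3.12, adjusted p = 2.91e-05) and Ddx18 (-2.75, adjusted p = 3.86e-05). All 5 held whichever library was left out. The Polr1b values rest on 0, 0 and 5 reads at steady-state stage III and 2, 0 and 5 reads at IL-33 stage IV, so their size depends on the fit.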

How the results depend on the processing

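No call among the 50 genes changed direction under any alternative, and all alternatives kept the count within 1.5 times of the reported one for stage IV against III under IL-33, IL-33 over steady state at stage III and the difference of the step from stage III to IV. DESeq2 kept 186 of 186 calls and moved the count to 7 for stage II against I and 12 for stage IV against III in steady state, and to 10 for the difference of the step from stage II to III. Limma-voom with sample weights gave 5 for stage II against I and 4 for stage IV against III in steady state, 2 for stage II against I and 34 for stage III against II under IL-33, and 9 at stage I and 11 at stage II for IL-33 over steady state. RLE scaling gave 2 for IL-33 over steady state at stage II. Scaling by library totals gave 8 for stage II against I in steady state, 0 for IL-33 over steady state at stage I and 11 for the step difference from stage II to III. It moved the median of all genes by -0.33 at stage III against II in steady state, -0.16 at stage II against I and 0.17 at stage IV against III (10 higher, 0 lower), by -0.21 at stage IV against III under IL-33, by -0.16, 0.27 and -0.15 for IL-33 over steady state at stages I, III and IV, and by 0.31 and -0.39 for the step differences from stage II to III and from III to IV. A fit of only the libraries compared gave 0, 24 and 0 for the successive steady-state steps, 20 for stage III against II under IL-33, and 0, 0 and 3 for IL-33 over steady state at stages I, II and IV. Without the 4 steady-state libraries numbered 3 the counts were 1 and 11 for stage II against I and stage IV against III in steady state, 0 and 2 for IL-33 over steady state at stages I and II, and 22 for the step difference from stage II to III. The cause of these differences was not tested, except that the smaller fits hold fewer libraries. Shares of all genes called under each alternative are not given here beside these counts.

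The replicate number as a block within condition gave 7 calls for stage II against I and 11 for stage IV against III in steady state. It changed no other call by the margin above. Same-numbered libraries correlated at 0.0577 to 0.163 for stage III against II in steady state and at 0.0462 to 0.103 for stage IV against III under IL-33. These correlations were positive but did not pass 0.1 in every pair, and the block there gave 42 and 43. Between conditions a block across both was added after seeing the data, as were the alternatives for Myc and the lists. Leaving out 1 library at a time, the counts ranged from 1 to 4, 33 to 40 and 3 to 13 for the successive steady-state steps, 0 to 0, 0 to 0 and 36 to 41 for those under IL-33, 0 to 1, 0 to 5, 30 to 37 and 4 to 11 for IL-33 over steady state at stages I to IV, and 0 to 0, 2 to 9 and 27 to 38 for the step differences. A library left out leaves its group with 2, and the spread is pooled over all groups. Depth limits Polr1b, at 0 to 5 reads per library at steady-state stage III and IL-33 stage IV.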
